A study of Homo sapiens with 4 samples.

Results

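The transcripts described here are those of KP4, an established human pancreatic ductal adenocarcinoma line, read for how far the response to FOLFIRINOX differed between control cells and KP4 cells labelled E5. FOLFIRINOX is a chemotherapy mixture of a topoisomerase I poison, a fluoropyrimidine and a platinum compound. The doses were 25 nM for SN-38, into which irinotecan is converted, 10 µM for an agent written 5-F and 5 µM for oxaliplatin. The 4 groups were control cells with vehicle (DMSO), control cells with FOLFIRINOX, E5 cells with vehicle and E5 cells with FOLFIRINOX, each for 96 h in DMEM with 10% FBS. The study's title names the E5 cells resistant, whereas its design text has cells pass through 5 cycles of DMSO or FOLFIRINOX, so what E5 vehicle cells had met before is not settled here. Each of the 4 GEO samples had 3 numbered columns, used as 12 libraries with n = 3 in each group. The sources used here do not say whether those columns are separate cultures, so p-values measure the spread between columns, which may be technical. They do not say either whether E5 is 1 clone or a pool. In bulk RNA, fewer cells with a transcript and less of it per cell cannot be told apart.

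The measure was the log2 response of E5 cells (FOLFIRINOX against vehicle) minus the log2 response of control cells, taken over all 12 libraries. All 60651 genes with an Ensembl identifier were members, and 15636 of them had enough reads to be tested, 12650 of these protein coding. A gene was called where edgeR's quasi-likelihood test gave an adjusted p under 0.05. Levels are CPM, read counts scaled to library size with TMM factors. They are given for each library or as the mean ± SD over a group (n = 3), and log2 responses carry an SE. A response is called reduced where it passed the test in both lines in the same direction, the difference passed as well and E5 had the smaller size. It is called lost where it passed in control cells and not in E5 cells while the difference passed. Enlarged is the converse of reduced and gained the converse of lost. Reversed means that both lines passed in opposite directions with the difference called. Kept means the same direction in both lines, no call of the difference, and a 95% interval of the difference within 1.5-fold either way. A gene written as rising, falling or differing passed this test, also where its adjusted p is not printed.

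As background, SN-38 traps topoisomerase I on DNA, fluoropyrimidines disturb thymidylate supply and oxaliplatin links DNA bases. Cells meet such damage with p53 targets, stress kinase output and NF-kappaB, a transcription factor family that drives chemokine genes. Interferon-stimulated genes form another programme, switched on through STAT and IRF factors that bind a promoter element called ISRE. MHC class I genes, which show peptides to T cells, answer to both.

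A few promoters were chosen for print because they hold the exact letters of an element named below. Other genes of the results, such as HLA-B and CXCL8, had no match to those letters in this window. A missing match does not show that the element is absent, since sites with other letters were not searched. The 250 bases before the RefSeq start (build GRCh38.p14) are shown for 3 interferon-stimulated genes whose fall was gained, for 1 MHC class I gene whose response reversed, and for 1 chemokine gene whose rise was lost. Capitals mark GAAANNGAAA on either strand (the ISRE core) in the first 4 and GGGANTTTCC on either strand (an NF-kappaB site) in the last. They come from chr1:78620198-78620447, chr11:313790-314039, chr14:94110486-94110735, chr6:29723184-29723433 and chr4:73869143-73869392, all on the plus strand.
IFI44L: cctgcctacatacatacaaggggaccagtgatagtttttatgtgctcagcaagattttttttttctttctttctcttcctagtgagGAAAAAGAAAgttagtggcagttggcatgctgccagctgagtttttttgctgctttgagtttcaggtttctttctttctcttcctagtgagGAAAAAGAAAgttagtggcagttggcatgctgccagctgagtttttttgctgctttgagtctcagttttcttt
IFITM1: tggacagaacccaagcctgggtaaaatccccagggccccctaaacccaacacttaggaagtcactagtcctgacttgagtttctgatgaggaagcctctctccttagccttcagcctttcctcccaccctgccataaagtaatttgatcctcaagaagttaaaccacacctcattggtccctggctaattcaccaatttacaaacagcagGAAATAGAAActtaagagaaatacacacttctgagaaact
IFI27: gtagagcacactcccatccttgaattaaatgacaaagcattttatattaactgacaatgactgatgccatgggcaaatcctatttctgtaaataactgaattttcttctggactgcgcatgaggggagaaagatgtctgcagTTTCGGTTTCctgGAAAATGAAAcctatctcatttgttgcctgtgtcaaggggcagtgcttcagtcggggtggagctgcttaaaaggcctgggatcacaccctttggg
HLA-F: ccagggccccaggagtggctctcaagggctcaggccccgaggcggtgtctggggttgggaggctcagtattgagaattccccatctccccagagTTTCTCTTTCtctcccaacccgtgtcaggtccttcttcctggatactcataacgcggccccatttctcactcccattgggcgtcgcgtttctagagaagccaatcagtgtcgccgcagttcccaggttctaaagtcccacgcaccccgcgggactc
CXCL1: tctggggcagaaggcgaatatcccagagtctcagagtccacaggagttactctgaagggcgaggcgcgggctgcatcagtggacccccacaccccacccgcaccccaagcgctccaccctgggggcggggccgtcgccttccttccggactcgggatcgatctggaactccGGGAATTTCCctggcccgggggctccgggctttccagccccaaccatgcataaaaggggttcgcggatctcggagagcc
IFI44L and IFI27 each held 2 matches and the other promoters 1 each. Over windows of 300 bases (250 before and 50 after the start), the ISRE core was in 3.65% of all 27305 RefSeq promoters and in 2.85% of the 10228 matched promoters of the 12649 tested protein-coding symbols. The NF-kappaB letters were in 0.579% and 0.577%. A match describes these letters and is neither a bound site nor a cause.

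In E5 cells most responses that differed were smaller than in control cells. FOLFIRINOX changed 10203 genes in control cells (65.3% of those tested, 32.6% rising and 32.7% falling) and 8174 in E5 cells (52.3%, 25.0% rising and 27.3% falling). The difference of the responses was called for 4013 genes, 25.7% of those tested: 2080 (13.3%) were higher in E5 and 1933 (12.4%) lower. At a difference of at least 2-fold 863 genes were called (5.52%), 354 higher and 509 lower. Of the 4013 genes, 2936 (73.2%) were blunted: 1443 reduced (9.23% of tested genes) and 1493 lost (9.55%). Reversed responses numbered 287 (1.84%), gained 557 (3.56%) and enlarged 194 (1.24%), and 39 fell in no class. Kept responses numbered 2954 (18.9%), the share to set beside the counts of kept genes given for lists below.

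The share of higher against lower calls moved with the scaling, the filter and the fold limit. Higher calls made up 51.8% with TMM, 41.0% at 2-fold or more, 39.5% with library totals only (1596 higher, 2448 lower), 63.4% without a filter on low counts (2359 and 1364), 26.5% on log2(FPKM + 1) (814 and 2258) and 27.4% on log2(FPKM + 0.1) (751 and 1993). Median-centring of log2(FPKM + 1) gave 46.4% (1244 and 1437). Library totals moved the median response of all tested genes in control cells from 0.00 to 0.14, and all directions here are relative to a TMM median of 0.00. Responses that passed in 1 line alone did not always differ: of 3673 genes called in control cells only, the difference passed for 40.8%, and of 1644 called in E5 only, for 33.9%. On the CPM scale, where absolute changes are compared in place of folds, the difference had the opposite sign for 93 of the 2080 and 77 of the 1933 genes.

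**Figure D1:**
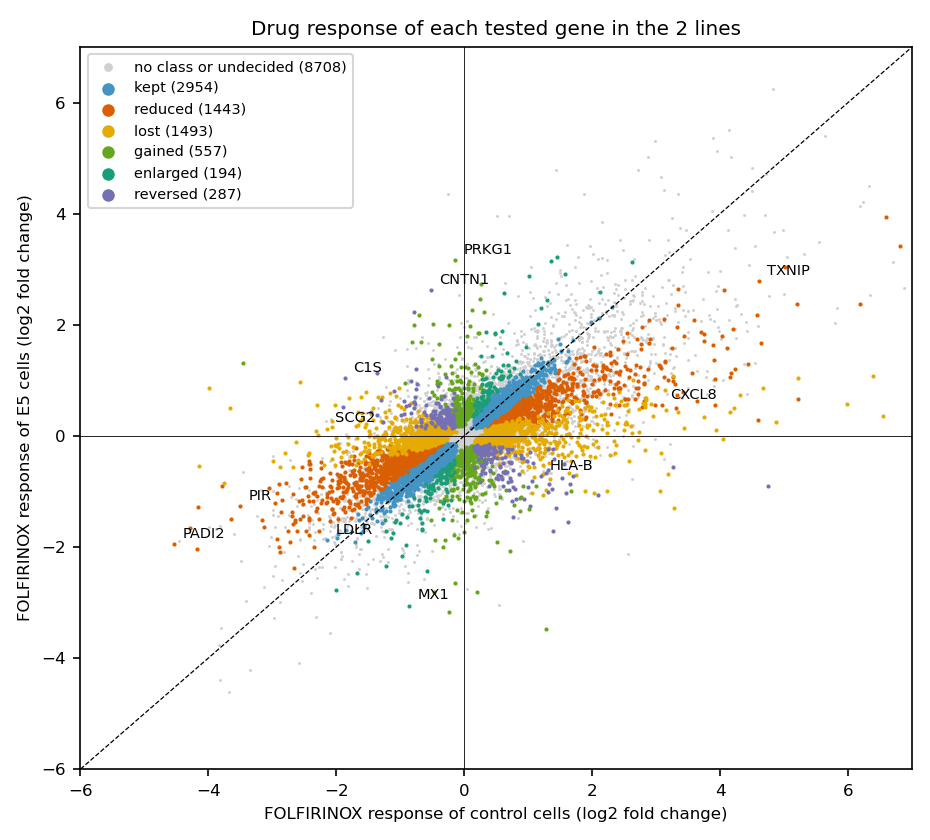
Log2 FOLFIRINOX response of E5 cells (vertical) against that of control cells (horizontal) for each tested gene, coloured by class, with the line of equal response dashed; 2 genes lie outside the axes. Reduced genes lie between that line and the horizontal axis, and lost genes lie around the horizontal axis on either side. Reversed genes lie in the upper left and lower right quadrants, with medians of 0.43 in control and -0.37 in E5 for rises and -0.37 and 0.33 for falls.

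Among genes that rose at least 2-fold in control cells (n = 1593), the median ratio of the E5 response to the control response was 0.566 (quartiles 0.315 and 0.798), and 86.6% responded less in E5. Among those that fell at least 2-fold (n = 1193), it was 0.563 and 91.5% responded less. Choosing genes by their response in E5 cells gave a median ratio of control to E5 of 1.05 for 819 rises and 0.986 for 607 falls. Genes chosen in control cells thus had smaller responses in E5, whereas genes chosen in E5 cells had about equal responses in control cells. The responses of the 2 lines share no library. Across 14493 genes their Pearson correlation was 0.75 and Spearman's rho 0.739, with a standard deviation of 0.93 in control and 0.686 in E5 cells. Genes are not independent replicates.

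**Figure D2:**
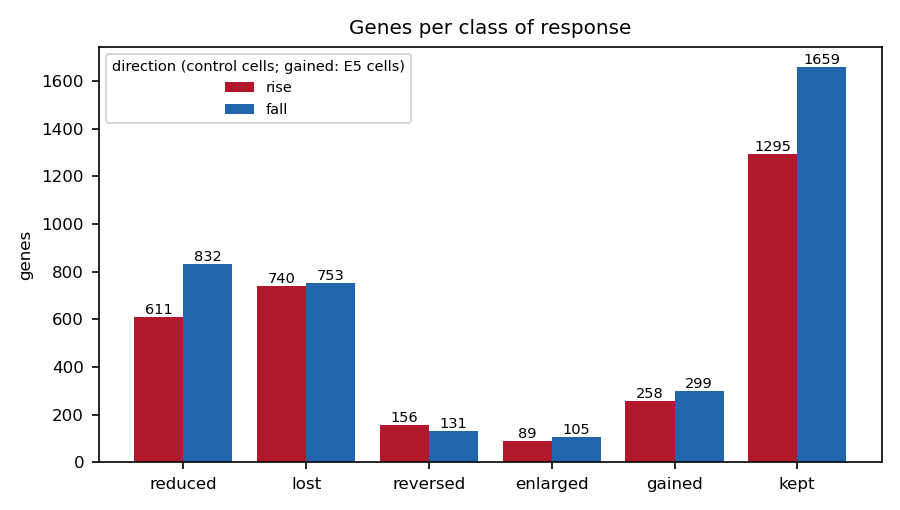
Number of genes in each class (vertical) by direction of the response, taken in control cells or, for gained genes, in E5 cells. Kept falls (1659) and kept rises (1295) are the tallest bars and enlarged rises (89) the shortest.

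Genes of NF-kappaB and its secreted outputs rose by a smaller fold in E5 cells. Of 14 tested genes for NF-kappaB subunits and feedback, 13 rose in control cells and 9 in E5 cells, and the difference was lower for 11 and higher for 1 (SOD2), with medians of 0.98 in control, 0.29 in E5 and -0.85 for the difference (0.00, 0.00 and 0.01 over all tested genes). TRAF1, an adaptor of TNF receptors (ENSG00000056558.11, chromosome 9, 120902393 to 120929173, GRCh38), stood at 2.56, 3.39 and 3.20 CPM in control vehicle, 41.1, 52.1 and 46.2 in control FOLFIRINOX, 10.2, 10.4 and 12 in E5 vehicle and 33.8, 36.8 and 31.4 in E5 FOLFIRINOX libraries. Vehicle and drug libraries were apart in both lines. The response was 3.89 ± 0.14 in control and 1.64 ± 0.11 in E5, a difference of -2.26 ± 0.18 (adjusted p = 1.99e-07). RELB, an NF-kappaB subunit, rose from 12.2 ± 1.39 to 69.6 ± 8.47 CPM in control and from 22.3 ± 1.67 to 34.9 ± 3.48 in E5. NFKB2, another subunit, had responses of 1.65 ± 0.07 and 0.42 ± 0.07. BIRC3, an inhibitor of apoptosis, had 2.76 ± 0.13 and 1.64 ± 0.13, and the inhibitors NFKBIA and TNFAIP3 were reduced as well. Calls of the difference made up 85.7% of the list, beside 25.7% over all tested genes. Under vehicle 12 of the 14 were higher in E5 than in control cells and 0 lower (median 0.68). With drug 3 were higher and 7 lower (median -0.24). Over all tested genes 44.3% differed between lines under vehicle and 54.3% under drug, in either direction. Line comparisons share libraries with the responses.

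Of 15 tested genes for secreted inflammatory factors, 12 rose in control and 7 in E5 cells, and the difference was lower for 11 and higher for 1, with medians of 1.81, 0.29 and -1.52. The higher one was PLAUR, the urokinase receptor, which was not called by DESeq2, with library totals, without a filter, with the replicate number as a block, or without control vehicle replicate 1 or 3, control FOLFIRINOX replicate 1 or 3, E5 vehicle replicate 2 or 3, or E5 FOLFIRINOX replicate 1 or 2. CXCL8, the chemokine interleukin-8 (ENSG00000169429.11, chromosome 4, 73740541 to 73743716), stood at 10.4, 8.31 and 7.78 CPM in control vehicle, 70.9, 71.3 and 77.2 in control FOLFIRINOX, 13, 15.3 and 14 in E5 vehicle and 21.2, 19.8 and 21.7 in E5 FOLFIRINOX libraries. Each drug group lay above its vehicle group. The response was 3.08 ± 0.10 in control and 0.56 ± 0.10 in E5, a difference of -2.53 ± 0.14 (adjusted p = 7.43e-09). CXCL1, whose promoter is printed above, rose from 3.39 ± 0.726 to 14 ± 2.56 CPM in control, while E5 groups overlapped at 7.65 ± 0.906 and 6.75 ± 0.881. IL11, a cytokine of the interleukin-6 family, rose from 2.33 ± 0.392 to 16.0 ± 0.959 CPM in control and stood at 0.66 ± 0.0275 and 0.915 ± 0.0732 in E5. The interleukin-1 genes IL1A and IL1B were reduced (IL1B not called on log2(FPKM + 1) or rlog), and the rises of CXCL2, CXCL3 and the collagenase MMP1 were lost. In all, the difference was called for 80.0% of this list, beside 25.7% over all tested genes. Under vehicle 9 of the 15 were higher in E5 than in control cells and 5 lower (median 1.01). With drug 5 were higher and 8 lower (median -0.22). The NF-kappaB letters were in 5 of 12 matched promoters of the NF-kappaB list (41.7%) and 4 of 11 of the secreted list (36.4%). These genes were listed as parts or outputs of NF-kappaB, so a high share there was likely beforehand. Among the classes, the letters were in 13 of 917 promoters of blunted rises (1.42%) and 1 of 1209 of blunted falls (0.0827%). They were in 5 of 307 of enlarged or gained falls (1.63%) and 2 of 120 of reversed rises (1.67%). Kept rises held them in 7 of 992 (0.706%) and kept falls in 4 of 1348 (0.297%). Enlarged or gained rises and reversed falls held 0 matches. These counts are small, and the share over promoters of tested protein-coding genes was 0.577%. Both lists share genes with these classes.

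Stress genes of DNA damage and of the unfolded protein response were mixed. Of 30 tested p53 targets, the difference was lower for 11 and higher for 1 (MDM2), 6 lower on median-centred log2(FPKM + 1), and 8 were kept. That was 40.0% called, beside 25.7% over all tested genes. Without control vehicle replicate 3 the higher calls numbered 3. GADD45A, a growth arrest gene (ENSG00000116717.13, chromosome 1, 67685201 to 67688334), stood at 37.6, 40.3 and 40.1 CPM in control vehicle, 320, 341 and 311 in control FOLFIRINOX, 52.8, 54.8 and 49.5 in E5 vehicle and 114, 130 and 136 in E5 FOLFIRINOX libraries. The groups did not overlap, and the response was 3.04 ± 0.07 in control and 1.27 ± 0.07 in E5 (difference -1.77 ± 0.11, adjusted p = 1.23e-08). The polo-like kinase PLK2 responded by 2.27 ± 0.06 and 0.98 ± 0.05. CDKN1A, the cell cycle inhibitor p21, had 0.69 ± 0.09 in control and 0.15 ± 0.09 in E5 (adjusted p = 0.172 for E5). MDM2, which marks p53 for degradation, fell by less in E5, from 141 ± 9.07 to 65.0 ± 5.66 CPM in control and from 147 ± 11.4 to 93.0 ± 11.9 in E5, a difference not called on FPKM. GDF15, a stress cytokine, was kept, at -0.89 ± 0.15 and -1.01 ± 0.15. TXNIP, a thioredoxin-binding protein induced by glucose, had 4.61 ± 0.08 and 2.78 ± 0.07.

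Of 21 tested ATF4 targets, genes of the amino acid and integrated stress response, the difference was lower for 10 and higher for 3 (1 on FPKM), with medians of -0.08 in control, -0.64 in E5 and -0.39 for the difference. In all, 61.9% were called, beside 25.7% over all tested genes. The lower calls came from rises that were smaller and from falls that were larger. DDIT3, which encodes CHOP, rose from 30.0 ± 2.06 to 152 ± 13.8 CPM in control and from 38.2 ± 2.02 to 69.3 ± 8.36 in E5. ATF3, a related factor of the AP-1 list, responded by 2.41 ± 0.09 and 0.55 ± 0.08. PCK2, the mitochondrial form of phosphoenolpyruvate carboxykinase (ENSG00000100889.12, chromosome 14, 24094053 to 24110598), fell more in E5: 19.1, 18.7 and 21.4 CPM to 7.72, 8.93 and 8.31 in control, and 26.8, 20.9 and 19.8 to 4.08, 4.34 and 4.63 in E5. Vehicle libraries overlapped between lines, and under drug E5 lay below control. CHAC1, which degrades glutathione, fell by 0.97 ± 0.15 and 2.17 ± 0.19 on the log2 scale, and SESN2, a leucine sensor, was gained as a fall, at 0.19 ± 0.10 in control (adjusted p = 0.102) and -1.09 ± 0.10 in E5. Of 18 chaperone and quality control genes of the endoplasmic reticulum, 6 were lower (4 without a filter), 1 higher (0 without control vehicle replicate 2) and 8 kept, with 38.9% called. HSPA5, the chaperone BiP, fell from 751 ± 4.34 to 523 ± 15.3 CPM in control and from 752 ± 7 to 369 ± 5.81 in E5, and HERPUD1, a degradation factor there, by 0.25 ± 0.07 and 1.25 ± 0.07 on the log2 scale, its control fall not called with library totals or on FPKM.

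**Figure D3:**
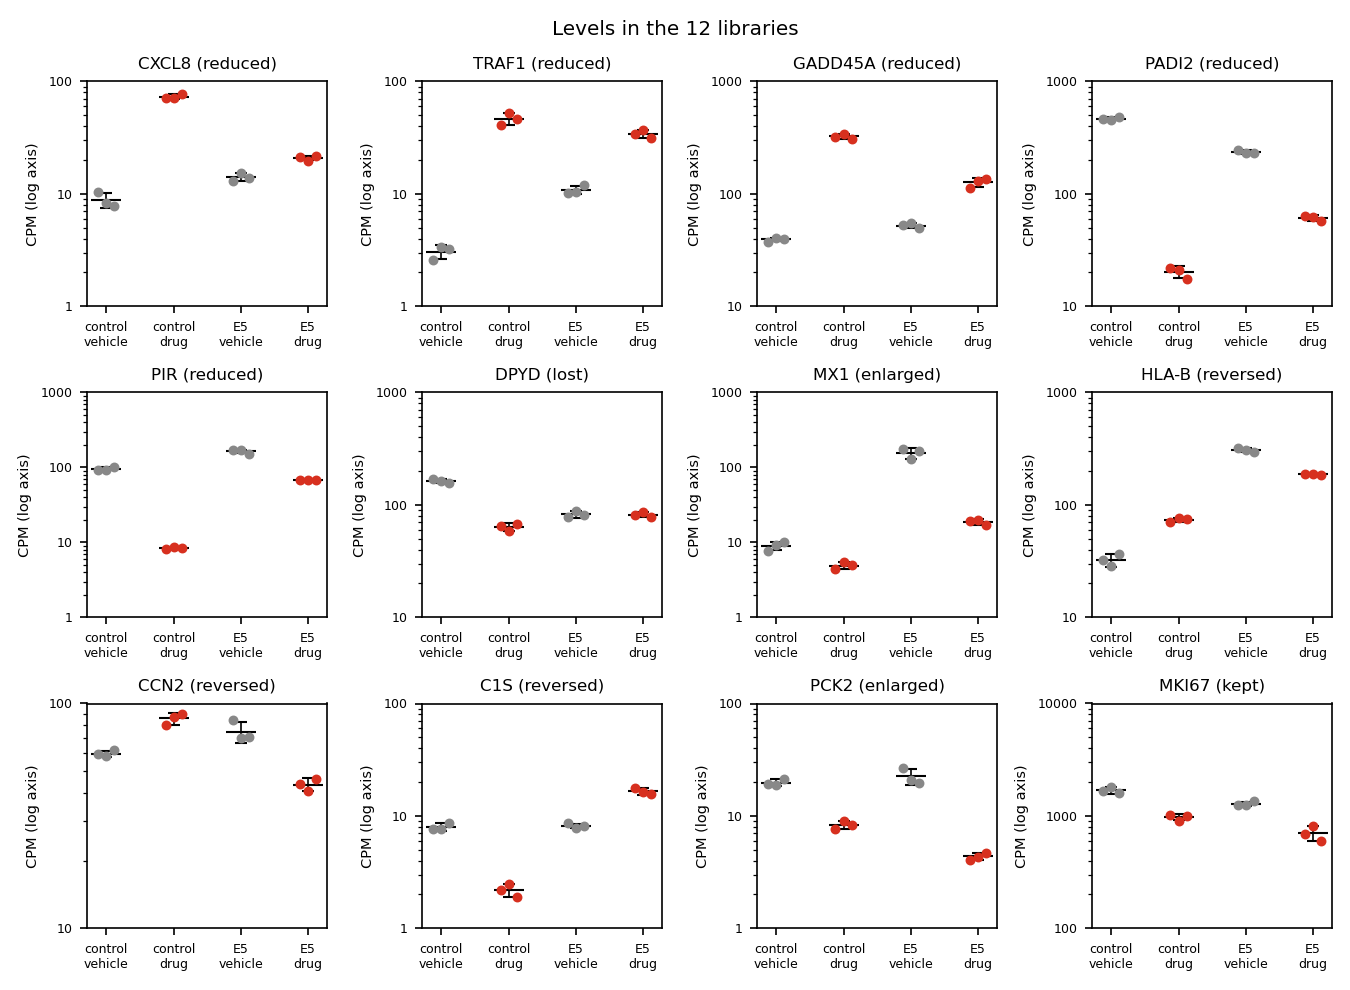
CPM (log axis) of 12 named genes in each of the 12 libraries, with the mean and SD of each group of 3; vehicle in grey, FOLFIRINOX in red. CXCL8 reaches 77.2 CPM in control and 21.7 in E5 libraries, HLA-B rises in control and falls in E5, and C1S falls in control and rises in E5.

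Interferon-stimulated genes fell under drug in E5 cells more than in control cells. Of 33 tested genes, 14 fell (8 on log2(FPKM + 1)) and 2 rose in control, while 32 fell in E5, and the difference was lower for 19 and higher for 0 by edgeR (0 at an unadjusted p under 0.05, and 0 by DESeq2, limma-voom and each other setting run), with medians of -0.58, -1.67 and -0.88. That was 57.6% called, beside 25.7% over all tested genes. In classes, 10 were gained, 7 enlarged, 2 reversed (HERC5 and PLSCR1) and 1 kept (PARP9). E5 vehicle cells had more of these transcripts: 32 of 33 were higher in E5 than in control cells under vehicle (22.1% over all tested genes, either direction 44.3%), with a median of 2.55, and 29 under drug (26.7%, either direction 54.3%), with a median of 1.40. The line comparisons share libraries with the drug responses and are given side by side only. MX1 (ENSG00000157601.15, chromosome 21, 41420020 to 41470071), a GTPase that blocks viruses, stood at 7.67, 9.31 and 10.0 CPM in control vehicle, 4.37, 5.41 and 4.96 in control FOLFIRINOX, 178, 128 and 163 in E5 vehicle and 19.0, 20.2 and 17.1 in E5 FOLFIRINOX libraries. The lowest E5 library stayed above the highest control library. The response was -0.87 ± 0.17 in control and -3.06 ± 0.11 in E5, a difference of -2.19 ± 0.20 (adjusted p = 1.60e-06). OAS1, which makes the activator of RNase L, stood at 3.27 ± 0.196 and 2.23 ± 0.383 CPM in control (whose fall was not called without control FOLFIRINOX replicate 2 or on FPKM, at -0.095 on log2(FPKM + 1) beside -0.58) and at 72.9 ± 8.66 and 13.4 ± 0.747 in E5.

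The 3 interferon-stimulated genes with printed promoters were near the detection limit in control cells. IFI44L (ENSG00000137959.17) stood at 0.222, 0 and 0.114 CPM in control vehicle and 0.129, 0.0992 and 0.390 in control FOLFIRINOX libraries, against 15.9, 11.4 and 15.2 in E5 vehicle and 0.982, 1.07 and 1.74 in E5 FOLFIRINOX. Control groups overlapped and E5 groups did not. The difference was -4.75 ± 1.09 (adjusted p = 0.00293) and was not called without control FOLFIRINOX replicate 3. IFITM1, a membrane protein that blocks virus entry, fell from 5.76 ± 1.45 to 0.787 ± 0.215 CPM in E5, and its difference was not called without control FOLFIRINOX replicate 2 or on log2(FPKM + 0.1). IFI27, a mitochondrial protein, fell from 2.37 ± 0.153 to 0.338 ± 0.139 in E5 and stood at 0.877 ± 0.285 and 0.648 ± 0.0934 in control. The ISRE core was in 70.4% of 27 matched promoters of the interferon list, in 10.1% of 307 of genes with an enlarged or gained fall and in 8.33% of 120 of reversed rises. These sets overlap: 10 gained, 7 enlarged and 2 reversed genes are on the list. Its genes were listed as interferon targets, so a high share there was likely beforehand. In kept falls it was in 1.93% of 1348 and in blunted rises in 3.71% of 917. Of 20 tested regulators and sensors of interferon, 8 were lower (5 on log2(FPKM + 0.1)) and 0 higher by edgeR (0 at an unadjusted p under 0.05 and 0 by the other tools), among them IRF7, whose rise from 3.21 to 7.35 CPM in control was lost (not called on FPKM), and CGAS, the DNA sensor, whose rise was reduced from 1.29 ± 0.07 to 0.58 ± 0.07. That was 40.0% called, beside 25.7% over all tested genes.

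Of the class I genes of the MHC and of peptide loading, some responded in opposite directions in the lines and others did not. Of 16 tested, 10 rose and 4 fell in control, 1 rose and 13 fell in E5, and 7 were reversed (1.84% over all tested genes), among them HLA-B, HLA-C, HLA-E, HLA-F, the peptide transporter TAP1 and the immunoproteasome subunit PSMB8. Of the others, 2 were reduced, 1 lost, 1 gained and 2 kept. The difference was lower for 10 and higher for 1 (0 without control vehicle replicate 2 and on FPKM, 2 without control FOLFIRINOX replicate 2), with medians of 0.31, -0.43 and -0.43. HLA-B (ENSG00000234745.13, chromosome 6, 31353872 to 31357188) stood at 32.0, 28.4 and 36.6 CPM in control vehicle, 70.5, 76.2 and 74.9 in control FOLFIRINOX, 321, 311 and 298 in E5 vehicle and 187, 189 and 184 in E5 FOLFIRINOX libraries. It thus rose 2.29-fold in control and fell in E5 with no overlap between groups in either line, and every E5 library exceeded every control library. The difference was -1.93 ± 0.11 (adjusted p = 7.43e-09). HLA-E had 0.40 ± 0.07 and -0.62 ± 0.07, and HLA-F 0.74 ± 0.22 and -1.18 ± 0.12. The call of HLA-C in control was absent without control vehicle replicate 2 or control FOLFIRINOX replicate 2. Reads that mapped to more than 1 gene were not counted, so levels of these similar genes are uncertain. Of the class I list, 68.8% had a called difference, beside 25.7% over all tested genes. In the line comparison 15 of 16 were higher in E5 under vehicle (median 1.48) and 15 under drug (median 1.11). Over all tested genes these shares were 22.1% and 26.7%.

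Other reversed genes had diverse roles. CCN2, a matrix protein and YAP target, rose from 59.6, 58.2 and 61.9 to 80.0, 87.3 and 90.2 CPM in control and fell from 84.1, 70.1 and 70.6 to 43.8, 40.7 and 46.4 in E5 (difference -1.30 ± 0.11). The groups were apart in both lines. The chemokine CCL5 responded by 1.39 ± 0.29 and -1.72 ± 0.12, the lysosomal protease CTSS by 2.10 ± 0.30 and -1.06 ± 0.11, and the lipase LIPG by 3.26 ± 0.53 and -0.55 ± 0.13, its E5 fall not called on FPKM. All 3 stood under 2 CPM in control cells. The keratin KRT8 responded by 0.89 ± 0.09 and -0.39 ± 0.08, and CDC25C, a phosphatase for entry into mitosis, by 0.63 ± 0.08 and -0.39 ± 0.08. In the opposite direction, C1S, a complement protease (ENSG00000182326.15, chromosome 12, 6988259 to 7071032), fell from 7.67, 7.59 and 8.70 to 2.19, 2.48 and 1.90 CPM in control and rose from 8.57, 7.79 and 8.09 to 17.7, 16.4 and 15.5 in E5. The vehicle levels overlapped between lines while the drug levels were apart, and the difference was 2.90 ± 0.18 (adjusted p = 1.23e-08). The heparan sulfate protein GPC6 responded by -1.46 ± 0.10 and 0.43 ± 0.07, the adhesion protein CADM1 by -1.30 ± 0.10 and 0.65 ± 0.12 (its E5 rise not called on log2(FPKM + 1)), and FSTL5 by -1.36 ± 0.13 and 1.14 ± 0.21.

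**Figure D4:**
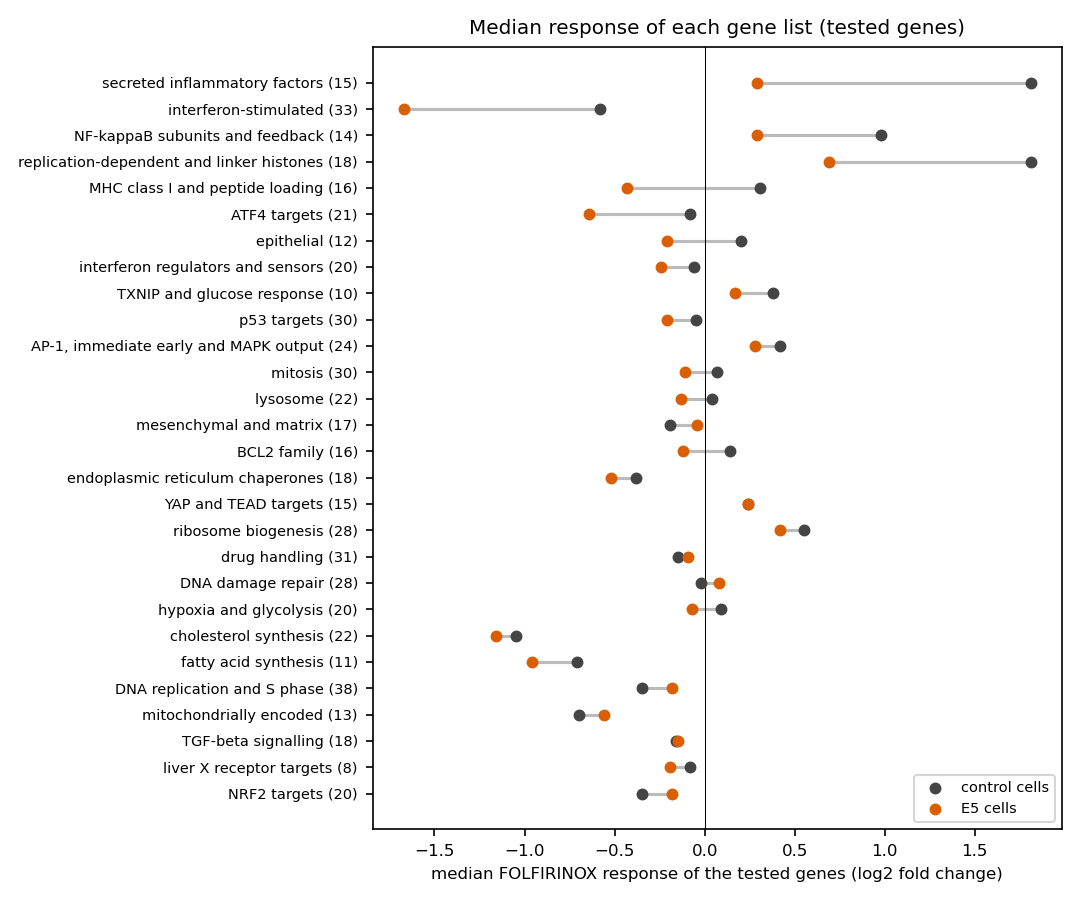
Median log2 FOLFIRINOX response of the tested genes of each list in control cells (dark) and E5 cells (orange), with the number tested in brackets. The pair is farthest apart for secreted inflammatory factors (1.81 and 0.29), and class I genes lie on opposite sides of 0.

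Blunted falls numbered 1585, beside 1351 blunted rises. Under vehicle E5 had the higher level for 998 of the blunted rises and 615 of the blunted falls. With drug this held for 294 rises and 1406 falls. These levels are part of the difference itself and no separate result. PADI2 (ENSG00000117115.13, chromosome 1, 17066761 to 17119451), an enzyme that makes citrulline from arginine, stood at 461, 455 and 482 CPM in control vehicle, 22.1, 21.1 and 17.5 in control FOLFIRINOX, 246, 232 and 232 in E5 vehicle and 63.8, 62.4 and 57.0 in E5 FOLFIRINOX libraries. Control cells were above E5 cells without drug and below them with it. The response was -4.54 ± 0.08 in control and -1.95 ± 0.07 in E5, a difference of 2.59 ± 0.11 (adjusted p = 1.62e-10). SCG2, a granin of secretory granules, fell from 171 ± 3.94 to 38.5 ± 0.664 CPM in control, while E5 libraries stood at 34.1 ± 0.0725 and 37.3 ± 2.27. TNC, the matrix protein tenascin C, fell from 158 ± 5.90 to 64.8 ± 2.57 in control and stood at 306 ± 9.34 and 296 ± 42.1 in E5. WWTR1, a coactivator of TEAD factors, responded by -1.37 ± 0.06 and -0.48 ± 0.05.

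Targets of NRF2, the factor of the oxidant defence, were among the blunted falls. Of 20 tested genes, 10 fell in control and 8 in E5, and the difference was higher for 10 and lower for 2, with medians of -0.35, -0.18 and 0.32. PIR, an iron-binding nuclear protein (ENSG00000087842.11, chromosome X, 15384799 to 15493564), fell from 93.8, 93.2 and 101 to 8.10, 8.63 and 8.47 CPM in control and from 169, 169 and 152 to 68.8, 67.5 and 67.8 in E5. Drug and vehicle libraries were apart in both lines, and under drug every control library lay below every E5 library. The difference was 2.24 ± 0.10 (adjusted p = 3.46e-10). NQO1, a quinone reductase, fell from 369 ± 15.5 to 165 ± 8.01 CPM in control and from 1183 ± 20.4 to 979 ± 50.6 in E5, where the fall was not called on FPKM. The pentose phosphate enzymes TKT and TALDO1 and the thioredoxin reductase TXNRD1 were reduced in their falls. The lower calls were HMOX1, haem oxygenase, at 1.42 and 0.55, and ABCC2. Calls of the difference made up 60.0% of the list, beside 25.7% over all tested genes. Under vehicle 19 of the 20 were higher in E5 (median 1.06), and under drug also 19 (median 1.21). Over all tested genes 22.1% were higher in E5 under vehicle and 26.7% under drug.

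Genes for the handling and targets of the drugs gave no common direction. Of 31 tested, the difference was higher for 7 (3 on FPKM) and lower for 4, 35.5% in all beside 25.7% over all genes. Of these 31, 6 were kept, near the 18.9% over all tested genes. DPYD, which degrades pyrimidines (ENSG00000188641.14, chromosome 1, 97077743 to 97995000), stood at 170, 164 and 156 CPM in control vehicle, 64.8, 58.1 and 67.6 in control FOLFIRINOX, 77.4, 88.1 and 81.5 in E5 vehicle and 81.7, 86.2 and 77.9 in E5 FOLFIRINOX libraries. Control groups were apart and E5 groups overlapped, at -1.36 ± 0.07 and -0.01 ± 0.07, with a difference of 1.35 ± 0.10 (adjusted p = 1.93e-07). The export pump ABCC2 rose from 4.27 ± 0.166 to 9.20 ± 0.109 CPM in control and stood at 11.4 ± 0.696 and 12.4 ± 0.340 in E5, a difference not called on FPKM. ABCG2, another export pump, rose by 0.57 ± 0.07 and 0.21 ± 0.06. Under vehicle it stood at 36.7 CPM in control and 398 in E5, so the smaller fold stood on a far higher level. The E5 rise of ABCG2 was not called without E5 vehicle replicate 1 or on FPKM, nor its difference on rlog. SLC29A1, a nucleoside carrier, rose by 0.20 ± 0.08 and 0.68 ± 0.09, and its difference was not called on FPKM. Its control rise was not called without a filter, with the replicate number as a block, or without any 1 of the control vehicle libraries, control FOLFIRINOX replicate 2 or E5 vehicle replicate 2. For TOP1, the target of SN-38, the interval of the difference ran from -0.39 to 0.04, for TYMS, thymidylate synthase, from -0.04 to 0.32, for TOP2A from -0.45 to 0.32, for ATP7B from -0.66 to 0.30 and for ABCB1, at under 3 CPM, from -1.49 to -0.01 (adjusted p = 0.164). CES2, which activates irinotecan, and TK1, thymidine kinase, were kept, with differences of -0.01 ± 0.13 each. The control fall of CES2 was not called on FPKM.

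Kept responses held much of sterol synthesis, DNA replication and mitochondrial transcripts. Over all tested genes 18.9% were kept, 32.7% fell in control and 27.3% fell in E5 cells. Of 22 tested cholesterol synthesis genes, 21 fell in control and 20 in E5, 12 were kept, and the difference was higher for 6 (3 on FPKM) and lower for 2 (4 with library totals). That was 36.4% called, beside 25.7% over all tested genes. STARD4, a sterol carrier, fell from 29.8 ± 4.05 to 3.4 ± 0.595 CPM in control and from 106 ± 6.56 to 33.9 ± 4.33 in E5. Its fall was thus reduced in fold, while in CPM it was larger in E5. SREBF2, the factor that drives the list, had -2.27 ± 0.08 and -1.71 ± 0.08, a difference not called on FPKM.

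Of 38 DNA replication genes, 24 fell in control and 19 in E5, 18 were kept, and the difference was higher for 4 (9 without control FOLFIRINOX replicate 2, 1 on log2(FPKM + 0.1)) and lower for 2 (0 without a filter, 1 without control vehicle replicate 1 or 2, control FOLFIRINOX replicate 1, E5 vehicle replicate 1 or 3, or E5 FOLFIRINOX replicate 2 or 3). The 15.8% called lay below the 25.7% over all tested genes. Of 13 mitochondrially encoded genes, 12 fell in control and 11 in E5 and 11 were kept. The difference was higher for 1, MT-ND3, and lower for 0 by edgeR (3 and 0 at an unadjusted p under 0.05). MT-ND3 was not called on log2(FPKM + 1) or log2(FPKM + 0.1). For MT-CO2 and MT-ATP6 it was called by limma-voom (0.24 and 0.25) and without a filter. Under drug 5 of the 13 were higher in E5 than in control cells, and 0 under vehicle. Over all tested genes 26.7% were higher in E5 under drug and 22.1% under vehicle. MKI67, the proliferation antigen, fell from 1692 ± 112 to 976 ± 58.9 CPM in control and from 1283 ± 57.6 to 701 ± 106 in E5, a difference of -0.08 ± 0.12. Among mitosis genes, of 30 tested the difference was lower for 12 and higher for 0 by edgeR (1 at an unadjusted p under 0.05, 5 without a filter, 1 without control FOLFIRINOX replicate 3 or E5 FOLFIRINOX replicate 1, and 0 by DESeq2 and limma-voom). That was 40.0% called. KIF20A, a kinesin of cytokinesis, fell by 0.16 ± 0.06 and 0.80 ± 0.06 on the log2 scale. Its control fall rests on the setting: it was not called by DESeq2, with library totals (-0.021), at 5 CPM, on rlog, on FPKM, where the value was 0.024 on log2(FPKM + 1), or without control vehicle replicate 3 or control FOLFIRINOX replicate 3. Of 18 histone genes, 15 rose in control and 14 in E5, and the difference was lower for 9 and higher for 2 (61.1% called), with medians of 1.81, 0.69 and -0.64. H2BC4 rose from 3.42 ± 0.363 to 14.8 ± 1.40 CPM in control and from 9.06 ± 1.54 to 15.1 ± 0.958 in E5. Histone genes are near-identical copies, so these values are uncertain. FOSL1, an AP-1 subunit, and SOCS2, a cytokine signalling inhibitor, were kept rises, at 1.61 ± 0.09 and 1.35 ± 0.09, and 1.63 ± 0.08 and 1.53 ± 0.10, though the difference of SOCS2 was called on log2(FPKM + 1).

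Enlarged and gained rises were fewer. KCNQ5, a potassium channel (chromosome 6, 72621792 to 73198853), rose from 21, 20.1 and 20.7 to 25.7, 23.3 and 25.2 CPM in control and from 10.0, 11 and 10.6 to 28.0, 31.9 and 27.0 in E5, with vehicle and drug apart in both lines, and its difference of 1.18 ± 0.12 was not called on FPKM, nor its control rise without a filter. VEGFA, the vascular growth factor, rose from 55.8 ± 3.08 to 78.8 ± 4.01 CPM in control and from 289 ± 4.87 to 629 ± 15.3 in E5. PRKG1, a cGMP-dependent kinase, had overlapping control libraries at 6, 6.01 and 4.23 and at 4.24, 4.07 and 6.08 CPM, and rose from 0.670, 0.691 and 0.596 to 4.60, 5.91 and 7.47 in E5. The E5 drug libraries then overlapped the control libraries, and the difference was 3.3 ± 0.44 (adjusted p = 1.28e-05). XIRP2, an actin-binding protein, had -0.23 ± 0.15 and 1.99 ± 0.28, and the kinase MAP3K15 0.01 ± 0.09 and 1.24 ± 0.12. MARCHF4, a ubiquitin ligase, rose from 22.4 ± 0.362 to 45.0 ± 3.24 CPM in control and from 0.791 ± 0.132 to 5.68 ± 0.347 in E5, so the larger fold stood on a far lower level, and on log2(FPKM + 1) its difference turned to -0.20.

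Some rises called reduced rest on very few control reads. MSC and NRXN3 had 0 counts in control vehicle and 14 and 9 under drug, at least 4.82-fold and at least 3.10-fold higher against a floor of 3 counts over the group. LAMA4 had 1 count and 20, a ratio of 20.7 (95% exact interval 3.31 to 857). These intervals and floors cover counting error only. In E5 the same 3 genes stood at 3.88, 18.4 and 5.73 CPM under vehicle and 5.88, 22.3 and 8.46 under drug. The difference was not called without control vehicle replicate 2 (MSC and NRXN3) or 3 (LAMA4), or without control FOLFIRINOX replicate 2 (MSC) or 3 (NRXN3 and LAMA4). Its sign turned on log2(FPKM + 1) for MSC and NRXN3 and on rlog for all 3. The E5 rise of MSC was not called without E5 vehicle replicate 2 or E5 FOLFIRINOX replicate 1. That of NRXN3 was not called without a filter, with the block, without any 1 of the E5 vehicle libraries, or without E5 FOLFIRINOX replicate 1 or 2. TGFA, a ligand of the EGF receptor, with 0.629 ± 0.183 to 8.50 ± 0.396 CPM in control and 9.94 ± 1.21 to 15.6 ± 0.737 in E5, and DACT1, with 4.17 ± 0.32 and 1.12 ± 0.12, had a like pattern at higher counts.

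By the median of each class, genes with a higher response in E5 were longer than genes with a lower one. The median genomic span was 54600 bp for reduced falls, 58960 bp for lost falls, 80360 bp for reversed falls, 54660 bp for gained rises and 32970 bp for enlarged rises. Among genes with a lower response it was 25660 bp for reduced rises, 22280 bp for lost rises, 28140 bp for reversed rises, 26270 bp for gained falls and 25600 bp for enlarged falls. For kept falls it was 38930 bp and for kept rises 28570 bp, so falls had the longer median also where no difference was called. Over 10 equal bins of protein-coding genes by span (n = 1265 each), the longest (from 175214 bp) had a median response of -0.24 in control and 0.01 in E5, and in 31.8% of its genes the response was higher in E5 and in 6.88% lower. In the shortest bin (up to 6164 bp) the medians were 0.07 and 0.01, with 13% higher and 15.8% lower.

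**Figure D5:**
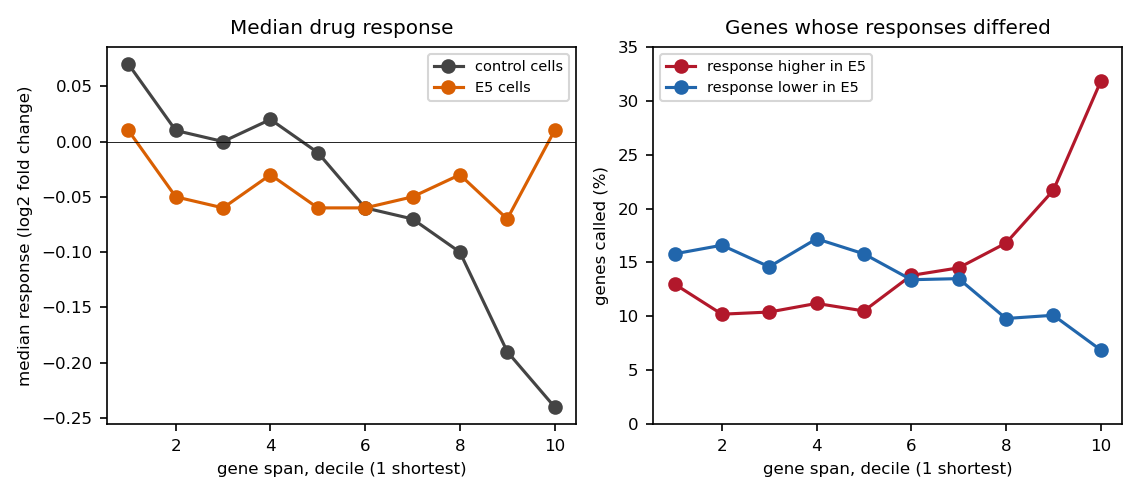
Left, median log2 FOLFIRINOX response in control (dark) and E5 cells (orange) by decile of gene span; right, percent of genes whose response was higher (red) or lower (blue) in E5. In control cells the median falls from 0.07 to -0.24 toward long genes, and the share of higher responses rises to 31.8%.

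Gene reads per library ranged from 7359034 to 21775030. Carcinoma markers summed to 195 to 230 CPM in control vehicle, 417 to 459 in control FOLFIRINOX, 743 to 829 in E5 vehicle and 770 to 874 in E5 FOLFIRINOX, with KRT8 and KRT18 carrying most, while EPCAM stayed under 2 CPM. Of 20 markers of other cell types 5 to 7 were at 0 in each group (CD3E, INS, PRSS1 and CPA1 among them in every group), and they summed to 64.1 to 67.8, 21.3 to 24.6, 30.7 to 32.4 and 16.9 to 18.5 CPM in the same order. Without PTPRC the sums were 12.7 to 15.5, 10.0 to 11.9, 30.6 to 32.3 and 16.8 to 18.5 CPM, highest in E5 vehicle. The fibroblast collagen COL1A1 stood at 3.84 and 2.66 CPM in control and 15.5 and 9.47 in E5, vehicle first, and the endothelial cadherin CDH5 at 0.153 and 0.0496 in control and 5.55 and 1.17 in E5. PTPRC, the leukocyte phosphatase CD45, stood at 51.9 CPM in control vehicle and 11.4 under drug, with 2 counts in each E5 group, whereas the other 5 blood markers together stayed under 0.85 CPM in every library. The part of these markers in the differences above was not tested.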

How the data were processed

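Counts deposited by the authors were stranded reads per gene, without scaling. Trimmomatic, STAR 2.5.1b and the build GRCh38 appear in the submitters' processing notes. FPKM values computed by the authors and the authors' rlog values (regularised log2 counts, per the file headers) served as alternatives, and the sources used here do not name their programs. Library sizes left out reads not given to 1 gene: 1.47 to 1.71% unmapped, 10.8 to 12.8% multimapping, 6.63 to 8.52% without a feature and 2.86 to 3.21% ambiguous.

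All 12 libraries were fitted in 1 group means model with edgeR 4.0.16 (TMM, filterByExpr, quasi-likelihood F tests, Benjamini-Hochberg adjustment over 15636 genes) in R 4.3.3, after a check on simulated counts. The spread between columns that edgeR names the biological coefficient of variation was 7.37%, and it may be technical here. SEs come from the fit's weights and moderated dispersion, and 95% intervals from those SEs. Genes with 0 counts in a group were set against 3 counts over the group. The 4 contrasts beside the difference were each line's drug response and the line difference under each treatment. Alternatives were DESeq2 1.42.0, limma 3.58.1 (voom, FPKM, rlog), other filters and scalings, a replicate block and leaving out each library.

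The members, the 30 gene lists and the rules were chosen with earlier results of these data known. The named genes were the 6 with the largest difference in each class and direction among protein-coding genes of at least 5 CPM in any group, the 6 kept genes with the largest smaller response in each direction, up to 4 per list at 1 CPM or more, 3 of other biotypes in each direction and 15 fixed genes of drug response. HERC5, PLSCR1, PARP9, PLAUR, SOD2 and members of lists given without values lie outside this rule and were named after their values were seen. Some genes that the rule names are not reported here. Promoters were the RefSeq table's, of GRCh38.p14, read on both strands.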

Additional observations from a re-analysis of the deposited data

Results flagged for a closer look

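A test of the difference itself separated the responses of control and E5 cells for 4013 genes, and 287 of these passed in both lines with opposite signs. The other comparisons had groups of 3 libraries, too few for a check of single values that stand apart.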

How the results depend on the processing

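Under DESeq2, limma-voom, rlog, library totals, other filters and the replicate block, the count of 4013 differing genes and its 2 directions stayed within 1.5 times. Exceptions came from the fold limit, from FPKM and from leaving out libraries, and the cause was not tested beyond the smaller number that a fold limit leaves by construction. At a fold of at least 2, 863 genes were called (354 higher, 509 lower), with 252 reduced, 375 lost, 97 reversed, 21 enlarged and 106 gained. On log2(FPKM + 1), 814 were higher, 188 reversed and 105 enlarged, and 2114 of the 4013 were still called, 4 of them with the opposite sign. On log2(FPKM + 0.1), 751 were higher, 890 reduced, 180 reversed, 96 enlarged and 364 gained. On median-centred log2(FPKM + 1), chosen after seeing the data, 1244 were higher, 818 reduced, 173 reversed and 120 enlarged. Class totals do not show which genes stayed in a class. With library totals 306 genes were reversed, but only 59.23% of the 287 stayed reversed. There 61.86% of enlarged and 84.03% of blunted genes stayed. On the FPKM forms 27.87 to 35.89% of reversed, 24.74 to 34.54% of enlarged and 49.11 to 50.17% of blunted genes stayed. On rlog 90.24%, 88.14% and 92.34% did. Signs turned, on log2(FPKM + 1) and its median-centred form, for INHBA (0.084 and 0.18), MARCHF4 (-0.20 and -0.11), MME (-0.15 and -0.061), MSC (0.58 and 0.67) and NRXN3 (0.21 and 0.30), for EGR2 when median-centred (0.016), and on rlog for LAMA4 (0.039), MSC (0.11) and NRXN3 (0.054).

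Leaving out 1 library at a time gave 3247 to 4057 calls, 1709 to 2235 higher and 1538 to 1852 lower, with 1035 to 1607 reduced, 1176 to 1456 lost, 212 to 300 reversed, 128 to 176 enlarged (lowest without control vehicle replicate 2), 449 to 592 gained and 2683 to 3048 kept. Of 146 named genes whose difference was called, 125 kept the call in every such fit, 136 in every other count-based one, 107 on every FPKM form and 137 on rlog. With the replicate number as a block, 3538 genes were called (1848 higher, 1690 lower), 3504 of them among the 4013. Deviations of same-numbered libraries from their group means correlated at -0.188 to 0.148, so no strong effect was shared by number. These values cannot tell whether same-numbered libraries were prepared together. Whether the calls lost under the block were weaker effects was not tested. Library pairs within a group differed by more than counting noise (chi-square per gene 1.46 to 13.3).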

Other observations

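Of 22 tested lysosome genes, the difference was lower for 6 and higher for 1, 31.8% in all and near the 25.7% over all tested genes. NEU1, a sialidase, rose from 20.4 to 49.9 CPM in control and stood at 25.8 and 26.3 in E5. Of 11 tested fatty acid synthesis genes, 10 fell in control and 8 in E5, and the difference was higher for 4 (2 on FPKM) and lower for 1, 45.5% in all. ACACA, acetyl-CoA carboxylase, fell from 406 to 133 CPM in control and from 405 to 204 in E5, and SREBF1 from 119 to 15.9 and from 185 to 43.1. Of 24 AP-1, immediate early and MAPK output genes, 7 were lower and 2 higher (37.5% in all), and 8 were kept. DUSP5, a MAP kinase phosphatase, rose from 30.6 to 182 CPM in control and from 15.1 to 31.1 in E5. Of 28 ribosome biogenesis genes, 22 rose in control and 20 in E5, 13 were kept and the difference was called for 25.0%, about the share over all genes.

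Among genes of other biotypes, the long noncoding RNA LINC00910 rose from 6.17 to 40.0 CPM in control and from 12.5 to 19.6 in E5, and LINC00641 fell from 30.3 to 9.38 in control and stood at 23.0 and 26.1 in E5.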
